A study of Mus musculus with 16 samples.

Results

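Interferon-stimulated genes were followed in macrophages sorted from mouse gliomas after 7 days of dosing with BLZ945, which blocks the CSF-1 receptor, or with its vehicle. The set was a list of 40 gene symbols. A gene was measured where a probe set was annotated to that symbol alone, and where there were several, the brightest on average over the 16 arrays stood for it. This held for 38 of the 40 genes, out of 12394 genes measured in all. The remaining pair, Dtx3l and Xaf1, was not analysed here.

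All mice were Nestin-Tv-a;Ink4a/Arf-/- on a mixed background, so Vehicle and BLZ945 mice alike lacked Ink4a/Arf. In these mice the Nestin promoter drives the receptor Tv-a, and tumours were started by intracranial injection of DF-1 cells that shed the RCAS-PDGF-B virus. There were 8 Vehicle mice and 8 BLZ945 mice, each dosed by gavage once per day, with 1 array per mouse. The dose is recorded as 200 mg in Vehicle and BLZ945 mice alike, without a body weight. The sorted cells were CD11b+ and Gr1-, which is a gate and not a pure cell type. Females numbered 4 of 8 in Vehicle and 5 of 8 in BLZ945. Age differed between the agents: 4 mice of each were 11.29 weeks old, the other Vehicle mice were 11.43 (2 mice) or 12.29 weeks (2 mice), and 13.14 weeks was the age of the other 4 BLZ945 mice. The volume of the tumour at the start, labelled without a unit, ran from 11.9 to 27.3 in the 6 Vehicle mice that have it and from 41.3 to 132.3 in BLZ945, so its part in any difference between agents cannot be told apart from the agent. The protocol places mice in groups at 4.5 to 40 mm3, and all 8 BLZ945 values exceed the upper bound if read in that unit, so what the labelled volumes measure is uncertain.

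Interferons are secreted proteins that warn cells of viruses and of nucleic acid out of place. Type I interferons such as interferon beta bind the Ifnar1-Ifnar2 receptor, whose kinases activate Stat2; a complex that holds Stat2 and Irf9 binds a DNA element called the interferon-stimulated response element, or ISRE. Interferon gamma, made mainly by NK and T cells, binds the Ifngr1-Ifngr2 receptor and acts through a DNA element called the gamma-activated site, or GAS, to induce Irf1 and many GTPases. Macrophages respond to both, and many genes are induced by either. The products sense foreign RNA and DNA, block viral translation and replication, or damp the signal again.

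Promoter sequence was taken from RefSeq windows of build GRCm38.p6 that run from 250 bases before to 50 bases after each gene's start, and 29 of the 38 genes had such a window. A core of the ISRE, GAAA, any 2 bases and GAAA, was searched on both strands, as was a core of the GAS, TTC, any 3 bases and GAA. The ISRE core stood in 15 of the 29 genes (51.7%) against 3.99% of 27025 genes and 3.44% of 32851 windows, and the GAS core in 10 of the 29 (34.5%) against 9.55% of genes and 8.3% of windows. Matches can overlap, as they do in Gbp3, Oas1a, Bst2 and Irgm1. The stretches below are shown because their genes carry the patterns described later: Ifit1, Ifit3 and Rsad2 for the antiviral effectors, Gbp2 for the GTPases, and Irf1 and Irf7 for the transcription factors. Capitals mark the matches. In Ifit1, Ifit3, Rsad2 and Gbp2 these read as the reverse complement of the ISRE core, and in Irf1 as the GAS core.
Ifit1 (chr19:34640755-34640843, plus strand): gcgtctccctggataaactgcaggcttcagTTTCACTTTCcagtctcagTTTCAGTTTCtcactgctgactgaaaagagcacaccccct
Ifit3 (chr19:34583343-34583446, plus strand): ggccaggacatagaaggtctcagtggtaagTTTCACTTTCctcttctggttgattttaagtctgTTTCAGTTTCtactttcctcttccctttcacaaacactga
Rsad2 (chr12:26456533-26456602, minus strand): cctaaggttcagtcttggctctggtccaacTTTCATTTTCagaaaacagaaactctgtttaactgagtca
Gbp2 (chr3:142620574-142620643, plus strand): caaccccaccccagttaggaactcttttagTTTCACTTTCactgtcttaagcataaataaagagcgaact
Irf1 (chr11:53769894-53769962, plus strand): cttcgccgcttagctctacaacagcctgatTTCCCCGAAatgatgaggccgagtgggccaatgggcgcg
Irf7 (chr7:141266425-141266524, minus strand): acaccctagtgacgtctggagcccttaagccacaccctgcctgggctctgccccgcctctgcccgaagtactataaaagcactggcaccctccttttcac
Ifit1 and Ifit3 each hold 2 ISRE cores, and Rsad2 and Gbp2 hold 1 each. The Irf7 window holds no match to either motif, nor does a window at another Irf1 start. These are matches of letters in a window, not shown binding sites, and a window without a match says nothing about the factor.

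Of the macrophage markers, Csf1r and C1qa were the brightest on average: Csf1r lay between 13.31 and 13.84 in all 16 mice and C1qa between 13.36 and 13.82, near the top of each array's scale (highest values 13.87 to 14.34). The mean of 8 macrophage markers ran from 11.63 to 12.15 in Vehicle and from 11.38 to 11.95 in BLZ945. Of the 8, Itgam, which encodes the sorting marker CD11b, fell in BLZ945 by 1.17 (SE 0.26, limma adjusted p = 0.00807), from 10.07 ± 0.51 to 8.90 ± 0.63, and the other 7 were not called, Aif1 at -0.33, Cx3cr1 at -0.42 and Cd68 at 0.41 being the farthest from 0. Pairs of arrays correlated at 0.937 to 0.991. For the interferon-stimulated genes 2 mice stood apart, Vehicle 2 and BLZ945 6, both male, and results that rest on them are given with and without them. All values are log2 intensities as deposited, differences are BLZ945 minus Vehicle on that scale unless said otherwise, and ± is the SD over 8 mice.

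No interferon-stimulated gene passed the test between the agents, while most had a lower mean in BLZ945. Of 38 genes, 28 had a negative difference and 10 a positive one, with a median of -0.21 and a range from -1.34 (Gbp3) to 0.42 (Irf1). Over all 12394 genes, 38.9% were negative and the median was 0.07. The lean depended on the fit: with the SD of all values on an array as covariate, 19 of the 38 were negative. Their median was then -0.01, against 0.02 over all genes. At a Benjamini-Hochberg adjusted p under 0.05 over all genes, limma called 0 of the 38 genes higher and 0 lower, where 2.6% of all genes were called higher and 5.34% lower (7.94% in either direction). At an unadjusted p under 0.05, 8 of the 38 were lower and 0 higher. In none of the 38 did the 2 groups fail to overlap, which they did for 1.04% of all genes downward and 0.315% upward.

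**Figure D1:**
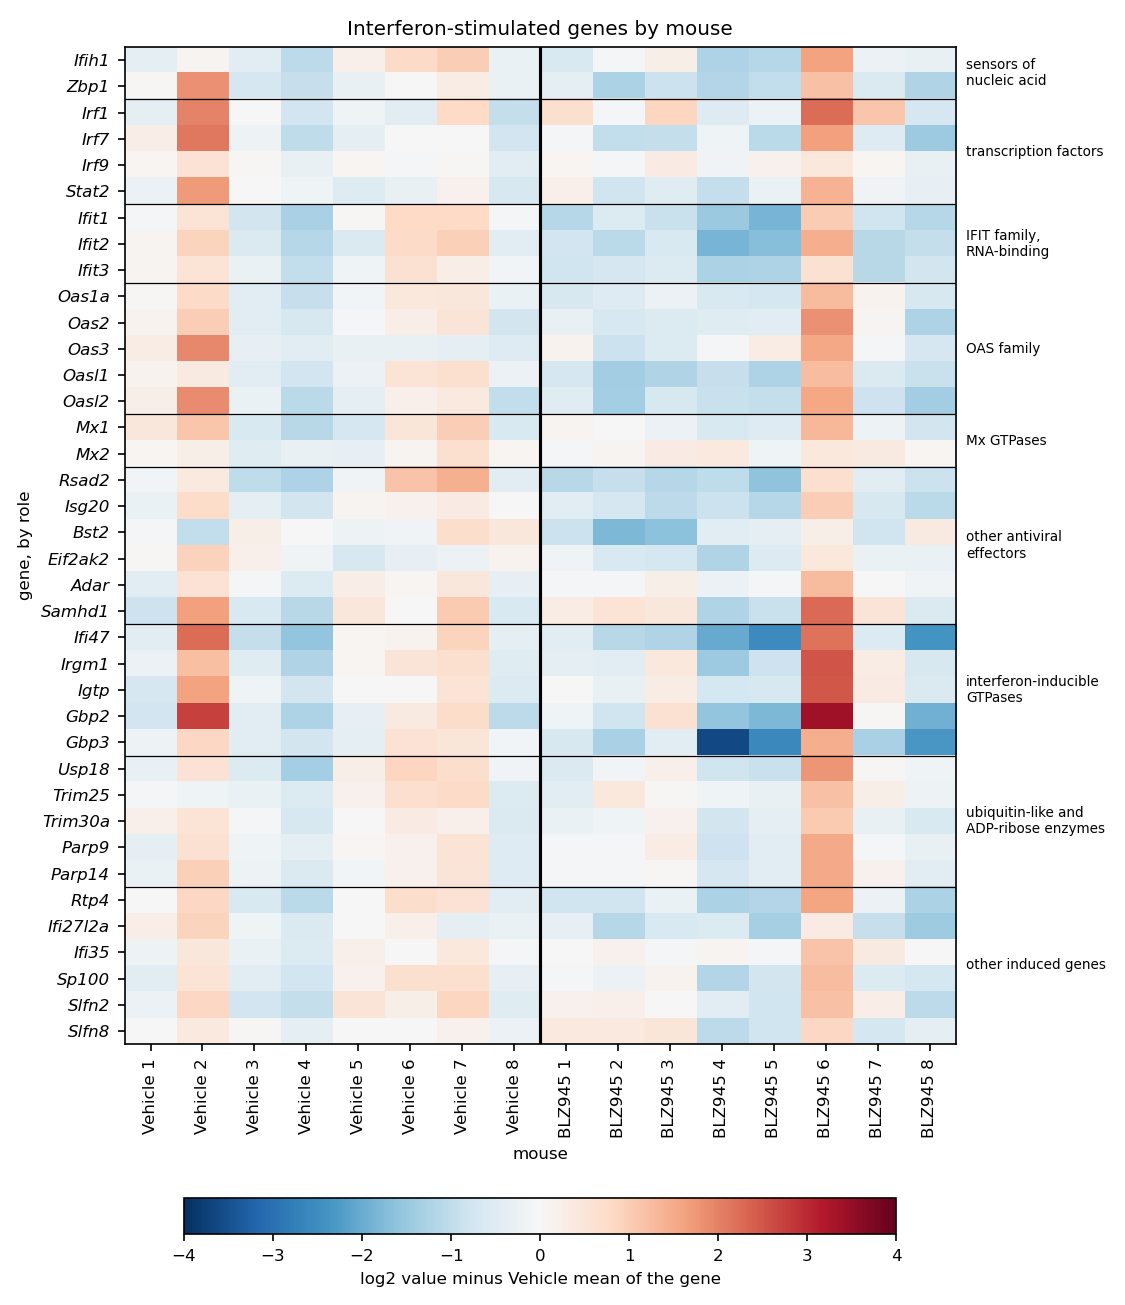
Log2 value of each of the 38 interferon-stimulated genes (rows, grouped by role) in each of the 16 mice (columns), minus the gene's mean over the 8 Vehicle mice; red is higher and blue lower, and the vertical line parts Vehicle from BLZ945. The columns of Vehicle 2 and BLZ945 6 are red in most rows, with mean differences of 0.94 and 1.36 over the 38 genes, and the columns of BLZ945 4, 5 and 8 are mostly blue (-0.89, -0.85 and -0.78).

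The IFIT family, proteins that bind viral RNA and block its translation, had the lowest group mean, -0.80 over its 3 genes. Ifit3 had a lowest value of 7.63, a median of 8.61 and a highest of 9.24 in Vehicle, and 7.36, 7.85 and 9.23 in BLZ945. The groups overlapped chiefly through BLZ945 6: the other 7 BLZ945 mice lay at or below 8.08 and 7 of 8 Vehicle mice at or above 8.34, with Vehicle 4 at 7.63. Its means were 8.62 ± 0.52 and 7.90 ± 0.60, a difference of -0.72 (SE 0.25, limma adjusted p = 0.0943). Ifit1 differed by -0.86 (SE 0.36, adjusted p = 0.157). Ifit2, the brightest of the 3, spanned 8.24, 9.21 and 10.32 (lowest, median, highest) in Vehicle and 7.53, 8.35 and 10.82 in BLZ945, so BLZ945 held both the lowest and the highest mouse.

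Among the other antiviral effectors the differences were split. Rsad2, whose product viperin makes a chain-terminating nucleotide, measured 9.52, 10.00, 8.60, 8.39, 9.48, 10.76, 11.03 and 9.19 in Vehicle mice 1 to 8. In BLZ945 mice 1 to 8 it measured 8.50, 8.69, 8.48, 8.59, 8.02, 10.27, 9.20 and 8.77. Vehicle 6 and Vehicle 7 were the highest, and 7 of 8 BLZ945 mice lay below the Vehicle median of 9.50; the difference was -0.81 (SE 0.36, adjusted p = 0.19). Its 3 probe sets gave differences between -0.81 and -1.29. Isg20, a ribonuclease, differed by -0.61 (SE 0.26, adjusted p = 0.171), and Bst2, which tethers budding virions to the cell surface, by -0.66 (SE 0.29, adjusted p = 0.185). Eif2ak2, the kinase PKR that stops translation on sensing double-stranded RNA, differed by -0.42 (adjusted p = 0.257). Adar, an RNA-editing deaminase, was at 0.11 (adjusted p = 0.759). Samhd1, which breaks down nucleotides and was the brightest of these 6 genes over 16 mice, had values of 8.22, 9.03 and 10.97 (lowest, median, highest) in Vehicle and 8.13, 9.72 and 11.61 in BLZ945, and a difference of 0.17 (SE 0.45, 95% interval -0.78 to 1.13).

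Proteins of the OAS family bind double-stranded RNA, and some of them activate a ribonuclease. All 5 genes had a lower mean in BLZ945, by -0.02 for Oas3 to -0.71 for Oasl1 (SE 0.31, adjusted p = 0.173). Oas1a, the brightest, spanned 8.83, 9.71 and 10.52 in Vehicle and 9.04, 9.18 and 11.01 in BLZ945 (difference -0.24, adjusted p = 0.61). Here too the highest BLZ945 mouse exceeded every Vehicle mouse while the BLZ945 median was the lower. The Mx proteins, GTPases that trap viral capsids, differed by -0.10 (Mx1, adjusted p = 0.875) and 0.18 (Mx2, adjusted p = 0.482). Mx1 spanned 6.40, 7.44 and 8.63 in Vehicle and 6.80, 7.32 and 8.85 in BLZ945, which overlap over most of their range.

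The interferon-inducible GTPases act at membranes, some of them at those around intracellular microbes, and were the most variable group. Gbp3 had 7.97, 8.54 and 9.52 (lowest, median, highest) in Vehicle and 5.07, 7.41 and 10.16 in BLZ945. Its means were 8.69 ± 0.55 and 7.36 ± 1.55, and the difference of -1.34 (SE 0.51, adjusted p = 0.123) went with a wider spread in BLZ945. Ifi47 differed by -1.01 (SE 0.59, adjusted p = 0.323). Igtp, the brightest, spanned 8.10, 8.76 and 10.45 in Vehicle and 8.15, 8.71 and 11.33 in BLZ945, with a difference of 0.11 (SE 0.40, adjusted p = 0.883). Gbp2 measured 7.23, 10.71, 7.55, 6.76, 7.65, 8.36, 8.72 and 6.95 in Vehicle mice 1 to 8 and 7.82, 7.18, 8.60, 6.42, 6.18, 11.39, 8.05 and 6.08 in BLZ945 mice 1 to 8. Vehicle 2 and BLZ945 6 lay far above all others, and the agents differed by only -0.27 (SE 0.67). The Gbp2 probe set is of a kind that can also bind related sequences, and a further Gbp2 probe set gave -0.34.

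The sensors, transcription factors and enzymes of the set showed the same overlap. Ifih1, the MDA5 sensor of long double-stranded RNA, spanned 7.63, 8.60 and 9.64 in Vehicle and 7.43, 8.40 and 10.28 in BLZ945. Zbp1, a sensor of Z-form nucleic acid, differed by -0.66 (SE 0.36, adjusted p = 0.294). Irf1, a transcription factor induced by interferon gamma, spanned 8.13, 8.79 and 11.08 in Vehicle and 8.42, 9.38 and 11.32 in BLZ945, the largest positive difference of the set (0.42, SE 0.43, adjusted p = 0.568). Irf7, which amplifies the interferon response, differed by -0.45 (adjusted p = 0.531), Stat2 by -0.17 and Irf9 by 0.07. Parp9 and Parp14, which act in ADP-ribosylation, differed by 0.01 and 0.00; Parp9 spanned 8.62, 9.10 and 9.77 in Vehicle and 8.32, 9.07 and 10.66 in BLZ945. Usp18, which removes Isg15 from proteins and damps the type I receptor, differed by -0.06 (SE 0.35). Trim25, a ubiquitin ligase of RNA sensing, had 2 probe sets at 0.09 and a dimmer probe set at -0.41.

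Ifi27l2a, which encodes a small hydrophobic interferon-induced protein and was the brightest gene of the set, came nearest to the threshold. It had 10.36, 10.85 and 11.84 in Vehicle and 9.51, 10.17 and 11.27 in BLZ945, with means of 10.94 ± 0.46 and 10.18 ± 0.59. Only BLZ945 6 lay above the Vehicle median, and the difference was -0.75 (SE 0.24, adjusted p = 0.0611). Rtp4 differed by -0.53 (SE 0.36, adjusted p = 0.399), while Ifi35 (0.20), Sp100 (-0.26), Slfn2 (-0.06) and Slfn8 (-0.10) lay closer to 0. The mean over markers of glioma cells was lower in BLZ945 too. For 9 of 10 listed markers it ran from 6.05 to 7.84 in Vehicle and from 4.69 to 6.37 in BLZ945. The markers did not all move alike. Pdgfra, Olig1, Olig2, Fabp7, Ptprz1 and Sox2 had lower means in BLZ945, by -1.23 (Olig2) to -2.76 (Fabp7). Sox10 (-0.07) and Dcx (-0.04) lay near 0, and Cspg4 was higher without being called (0.44, adjusted p = 0.424). The mean of 4 of 6 markers of Ly6C monocytes ran from 6.80 to 8.76 in Vehicle and from 5.02 to 7.42 in BLZ945. The part of these cells in the differences was not tested, and in sorted bulk RNA fewer cells of a type and less RNA per cell cannot be told apart.

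**Figure D2:**
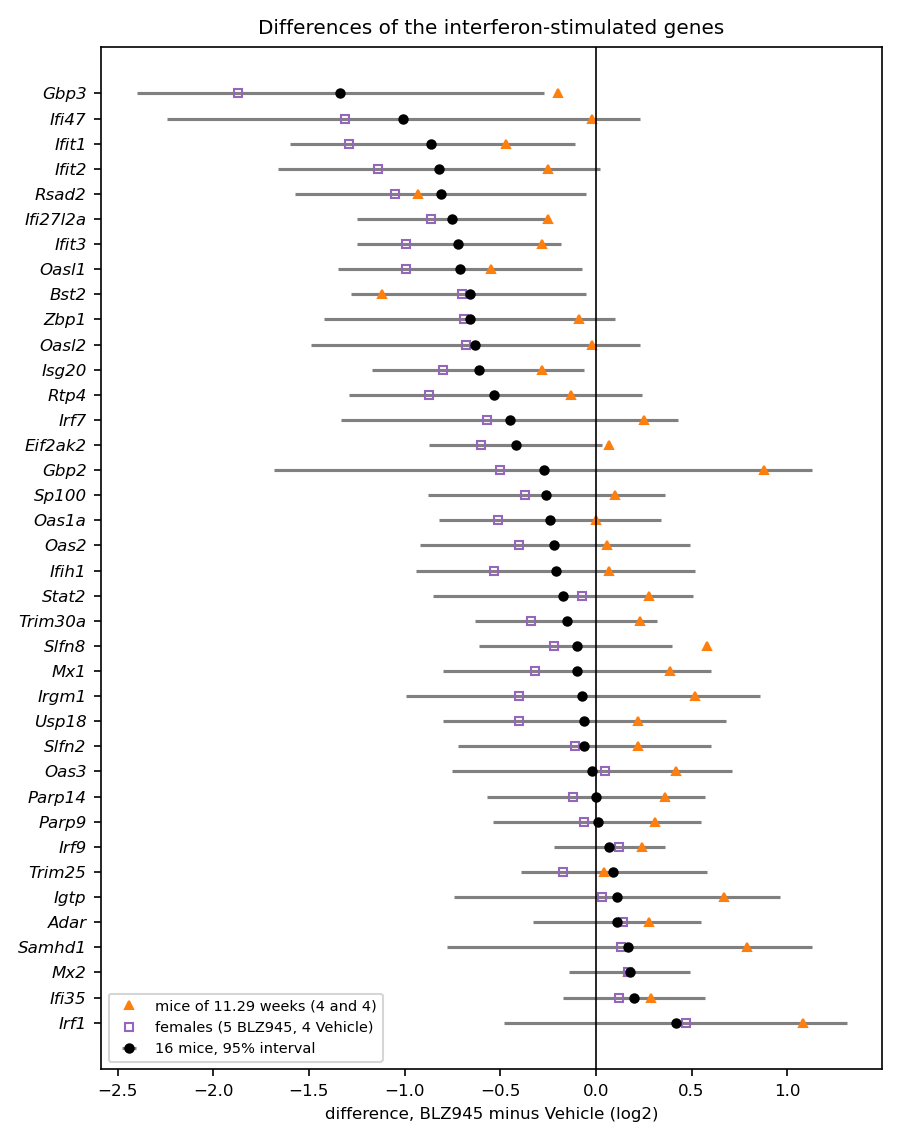
Difference between agents (log2, BLZ945 minus Vehicle) for the 38 genes, ordered by size. Black points with bars are the 16 mice with limma's 95% interval, triangles the 8 mice of 11.29 weeks and open squares the 9 females; Gbp3 is lowest at -1.34 and Irf1 highest at 0.42.

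The count of calls depended on single mice. Without BLZ945 6, limma called 7 genes lower (Ifit1, Ifit2, Ifit3, Oasl1, Isg20, Gbp3 and Ifi27l2a) and 34 of 38 differences were negative, with 9.59% of all genes called. Without Vehicle 4, the lowest Vehicle mouse in 29 of 38 genes, it called Ifit3 and Ifi27l2a lower, with 6.24% of all genes called. Without Vehicle 2 it called 0 (4 lower and 0 higher at an unadjusted p under 0.05), with 21 negative differences and 8.81% of all genes called. Without Vehicle 2 and BLZ945 6 together it called 9 lower, the 7 above with Zbp1 and Bst2, where 10.9% of all genes were called. Each of these mice was singled out for high or low values, so these counts are no test.

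The same few mice were highest or lowest for most of the genes. BLZ945 6 was the highest BLZ945 mouse in 37 of the 38 genes, against 14.4% of all genes, and the highest of all 16 mice in 25. The exception was Bst2, where BLZ945 8 was highest. Vehicle 2 was the highest Vehicle mouse in 26 genes (22.6% of all genes), Vehicle 7 in 9 (14.3%) and Vehicle 6 in 3 (13.1%). At the other end, Vehicle 4 was the lowest Vehicle mouse in 29 genes (6.86% of all genes), and BLZ945 4, 8 and 5 were the lowest BLZ945 mice in 15, 10 and 8 (15%, 9.26% and 10.7% of all genes). The SD over mice was larger than over all genes: its median over the 38 genes was 0.63 in Vehicle and 0.74 in BLZ945, against 0.29 and 0.31 over all genes. Without BLZ945 6 the BLZ945 median was 0.41. The 2 sets were not matched for brightness: the median level was 8.12 for the 38 genes and 6.27 over all genes. A mean under 5 was held by 0 of the 38 and by 4151 of all genes.

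The genes moved together from mouse to mouse. Over the 703 pairs of the 38 genes, the median Pearson r was 0.77 among 8 Vehicle mice and 0.83 among 8 BLZ945 mice. With agent means removed it was 0.78 over 16 mice, and 97% of pairs were above 0. Over all pairs of genes on the array the median was 0.01, and 4.03% exceeded 0.7 against 67% of the set's pairs. Part of this rested on the 2 high mice: without BLZ945 6 the BLZ945 median was 0.43, without Vehicle 2 the Vehicle median was 0.74, and over 14 mice without both it was 0.60. Spearman's rho, over 16 mice, had a median of 0.67. The points of each correlation are the same mice, so array quality, cell makeup and dissection are shared by all genes.

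**Figure D3:**
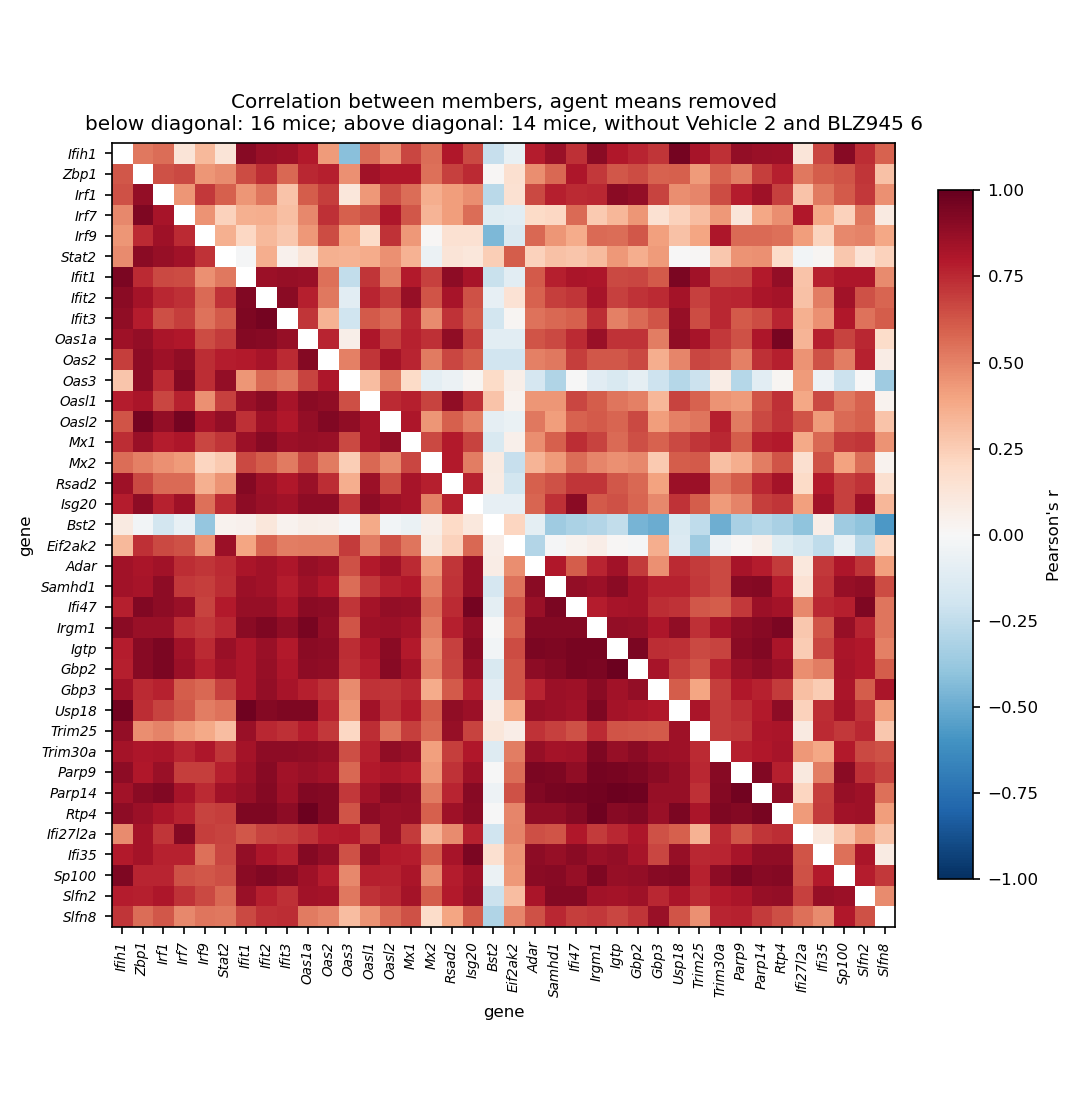
Pearson's r between each pair of the 38 genes after each agent's mean was removed. Below the diagonal are 16 mice (median 0.78) and above it 14 mice without Vehicle 2 and BLZ945 6 (median 0.60); the pale or blue row and column of Bst2 and, above the diagonal, those of Oas3 and Eif2ak2 stand out from the red field.

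Parp14, Rtp4 and Irgm1 had the highest median correlation with the rest of the set, 0.88 each over 16 mice. Bst2 did not follow: its median r was -0.38 in Vehicle and -0.01 over 16 mice, and Vehicle 2, high for most of the set, was its lowest Vehicle mouse at 7.78. The sign turned with the high mice. Without Vehicle 2 the Bst2 median was 0.24 in Vehicle. In BLZ945 it was 0.16, and -0.56 without BLZ945 6, and over the 14 mice it was -0.22. Over the 14 mice, the median r was also low for Oas3 (-0.05), Eif2ak2 (-0.05), Stat2 (0.27) and Ifi27l2a (0.29). Single pairs differed. Rsad2 and Ifit1 had r = 0.91 over 16 mice and 0.90 over 14, Gbp2 and Igtp 0.98 and 0.94, and Parp9 and Parp14 0.96 and 0.93. Irf7 and Oasl2, of different roles, had 0.96 and 0.81, while Mx1 and Mx2, of the same role, had 0.67 and 0.66. Rsad2 with Gbp2 had 0.67 and 0.58, and Irf7 with Rsad2 0.57 and 0.42. Irf7 with Stat2 had 0.84 over 16 mice and 0.22 over 14.

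Vehicle 2, Vehicle 7 and Vehicle 6 lay above the Vehicle mean in 36, 34 and 29 of the 38 genes, but their order differed between genes. Irf7 was 9.87 in Vehicle 2 against 7.77 in Vehicle 6 and 7.76 in Vehicle 7, and Gbp2 was 10.71 against 8.36 and 8.72. Rsad2 ran the other way, at 10.00 against 10.76 and 11.03, as did Trim25 at 8.86 against 9.70 and 9.80, and Ifih1 at 8.79 against 9.44 and 9.64. By role, Vehicle 2 led for the sensors, transcription factors, OAS family, GTPases and other induced genes, Vehicle 6 for the IFIT family, and Vehicle 7 for the Mx genes, the other antiviral effectors and the ubiquitin-like and ADP-ribose enzymes. Some of these leads were near ties: Vehicle 6, 7 and 2 lay 0.73, 0.68 and 0.66 above the Vehicle mean for the IFIT family, and Vehicle 7, 2 and 6 lay 0.54, 0.51 and 0.44 above it for the enzymes.

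Of 6 interferon genes measured, Ifnb1 and Ifng were each highest in mice that were high for the set, and the others were not. Ifnb1, which encodes interferon beta, was highest in Vehicle 7 (6.37) and Vehicle 6 (5.06), and the other 14 mice lay from 3.33 to 4.49, with Vehicle 2 at 3.63 and BLZ945 6 at 3.67. Ifng, which encodes interferon gamma, was highest in BLZ945 6 (5.24), followed by BLZ945 2 (3.62) and Vehicle 2 (3.37), and the rest lay from 2.41 to 3.0. Among the interferon alpha genes, which are close copies of each other, Ifna1 was highest in Vehicle 1 (5.96) and BLZ945 5 (5.93), and Ifna2 in Vehicle 8 (4.74) and BLZ945 7 (4.73). Ifna4 was highest in Vehicle 1 (3.64) and BLZ945 8 (3.55), and Ifna5 in Vehicle 1 (3.83) and BLZ945 1 (4.05). Ifnb1 and Ifng are dim probe sets, and neither passed between agents (Ifnb1 -0.66, SE 0.29, adjusted p = 0.185; Ifng 0.49, SE 0.30, adjusted p = 0.345). Markers of NK cells, 8 of 9 listed, had means from 4.55 to 6.08 in Vehicle and from 4.63 to 7.37 in BLZ945. BLZ945 6 (7.37) was the highest of all 16 mice, followed by BLZ945 1 (6.11) and BLZ945 2 (6.09), which were not high for the set, and then by Vehicle 2 (6.08), the highest Vehicle mouse. Gzma, which encodes a granzyme, reached 7.69 in Vehicle 2 and 10.47 in BLZ945 6. Marker means of T cells (7 of 9), B cells (4 of 5) and Ly6C monocytes (4 of 6) were high in these 2 mice too. Each led its group, at 4.71 and 5.13, 5.08 and 4.87, and 8.76 and 7.42. In BLZ945 6 the last 2 were near ties, with BLZ945 4 at 4.82 for B cells and BLZ945 2 at 7.37 for monocytes. BLZ945 6 was the highest BLZ945 mouse for Cd3d, Cd3g, Cd2, Ms4a1 and F10. It was not for Cd3e, Cd4, Cd8a, Icos, Cd79a, Cd79b, Pax5, Ccr2, Plac8 and Vcan. Vehicle 2 was the highest Vehicle mouse for Cd3d, Cd3g, Cd8a, Cd2, Cd79a, Ms4a1, Pax5, Ccr2, Plac8 and F10. It was not for Cd3e, Cd4, Icos, Cd79b and Vcan, and its Vcan value (4.53) was the lowest in Vehicle. Vehicle 6 and Vehicle 7 had NK cell means of 4.68 and 4.55. The part of these cells in the pattern was not tested, and no probe set could be called absent.

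**Figure D4:**
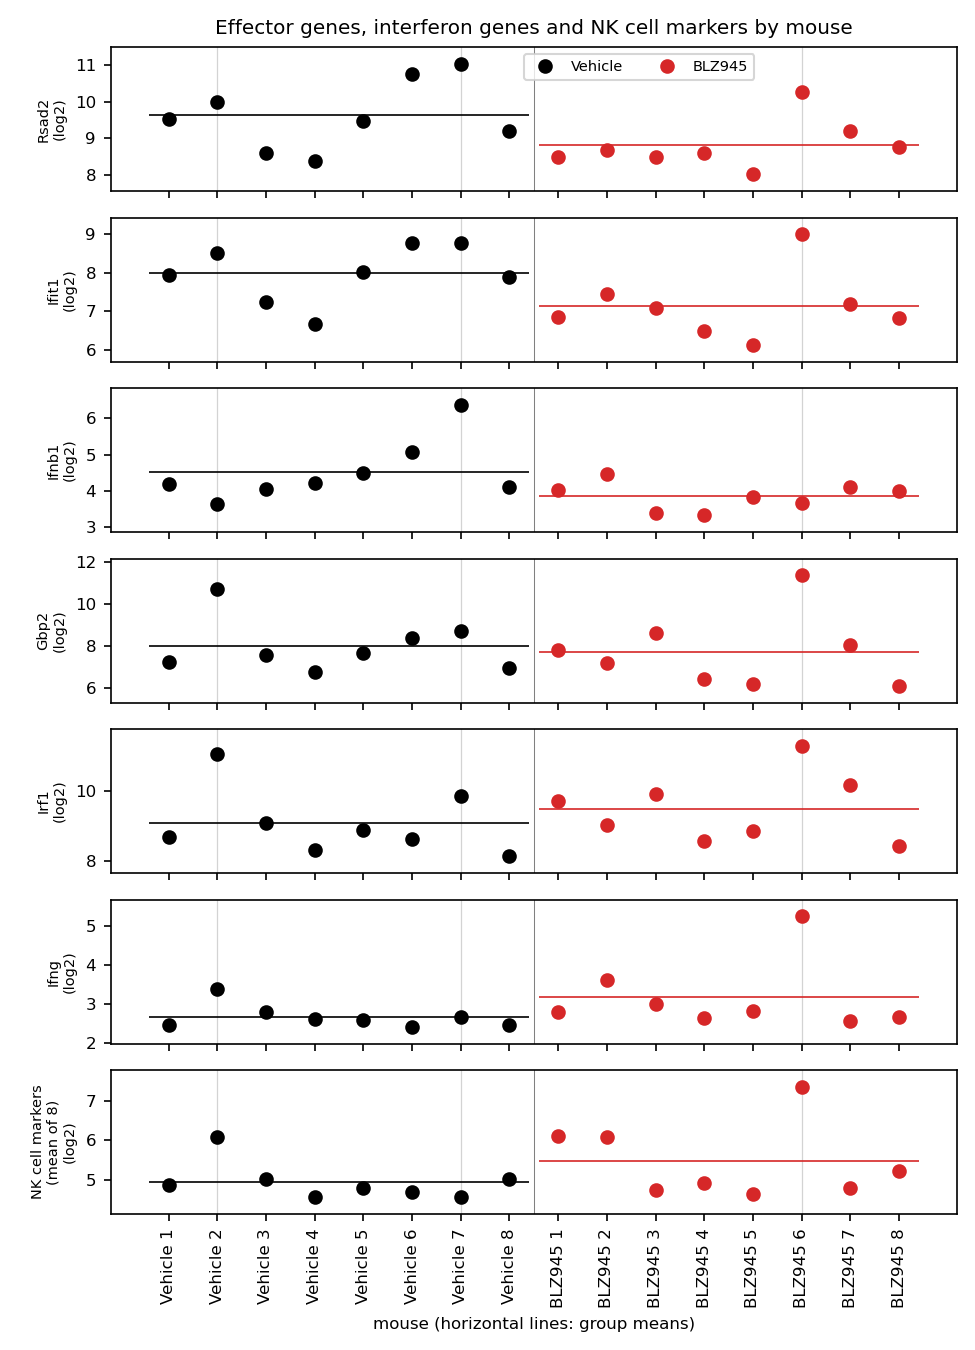
Log2 value by mouse (black Vehicle, red BLZ945; horizontal lines are group means) of Rsad2, Ifit1, Ifnb1, Gbp2, Irf1, Ifng and the mean of 8 NK cell markers; each panel has its own axis. Rsad2 and Ifnb1 are highest in Vehicle 7 (11.03 and 6.37), and Gbp2, Irf1, Ifng and the NK cell markers in BLZ945 6 (11.39, 11.32, 5.24 and 7.37).

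Within females, 5 BLZ945 against 4 Vehicle, neither of the 2 high mice took part, and 4 genes fell in BLZ945. These were Oasl1 (-0.99, SE 0.21, limma adjusted p = 0.0244), Ifit1 (-1.29, SE 0.28, 0.0251), Ifit3 (-0.99, SE 0.22, 0.0273) and Isg20 (-0.80, SE 0.19, 0.0368). Age went partly with the agent here: BLZ945 4, 5 and 8 were 13.14 weeks old, and the oldest Vehicle female was 12.29 weeks. The fit had no term for age, so its part in these calls was not told apart from the agent. Of all genes 2.19% were called lower and 0.976% higher in females (3.17% in either direction). Ifit1 was 7.94, 7.23, 8.77 and 7.89 in the Vehicle females (mice 1, 3, 6 and 8) and 6.85, 7.07, 6.49, 6.12 and 6.82 in the BLZ945 females (mice 1, 3, 4, 5 and 8), with no overlap. Of the 38 genes, 6 did not overlap, all lower in BLZ945, against 4.1% of all genes lower and 3.58% higher: the 4 called with Ifit2 and Ifi27l2a. Leaving out single females moved the count of calls: it was 0 without Vehicle 1, Vehicle 6, Vehicle 8 or BLZ945 5, where 1.42%, 1.87%, 1.38% and 1.91% of all genes were called, and 1 without BLZ945 4 (2.23%). It was 7 without Vehicle 3 (4.58% of all genes) and 8 without BLZ945 1 (3.45%). Within males, 3 BLZ945 against 4 Vehicle, limma called 0 genes, 0 also at an unadjusted p under 0.05, with 22 positive and 16 negative differences (0.0161% of all genes called). The direction in males turned with the high mice: without BLZ945 6, 33 of 38 were negative (median -0.44), without Vehicle 2, 31 were positive (median 0.35), and without both, 26 were negative (median -0.12), with 0 called in each. The interaction of agent and sex was called for 0 genes (0% of all genes), 0 of the 38 also at an unadjusted p under 0.05, with a smallest adjusted p of 0.983. A different response in the sexes was therefore not shown.

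Females were lower than males in 37 of 38 genes with the agent as covariate, by a median of -0.52, but limma called 0 (10 lower and 0 higher at an unadjusted p under 0.05; 0.0323% of all genes called, 0.00807% higher and 0.0242% lower). Over all genes 46.9% were lower in females. Both high mice were male: without them 27 of 38 were lower, with a median of -0.13 and 1 at an unadjusted p under 0.05.

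Age was compared within BLZ945, 4 mice of 13.14 weeks against 4 of 11.29 weeks. Sex was not balanced: BLZ945 4, 5 and 8 of the older mice and BLZ945 1 and 3 of the younger were female. The fit had no term for sex. In the older mice 37 of 38 genes were lower, Bst2 (0.71) being the exception, with a median of -0.72 where all genes had 0.05. The test called 0 of them, with 0.0403% of all genes called, and 14 were lower and 0 higher at an unadjusted p under 0.05. Slfn8, of a family that regulates growth and quiescence of immune cells, came nearest: it was 5.56, 5.83, 5.91 and 6.23 in the older mice (4, 5, 7 and 8) and 7.01, 7.02, 7.10 and 7.43 in the younger (1, 2, 3 and 6). The difference was -1.26 (SE 0.18, adjusted p = 0.0525), and the Vehicle mice ran from 6.22 to 7.01, which spans the gap between the ages. The ages did not overlap in 4 of the 38 genes, Gbp3, Trim30a, Sp100 and Slfn8, all lower in the older mice, against 4.43% of all genes lower and 4.6% higher. Without BLZ945 6, which was among the younger, 31 of 38 were lower and the median was -0.34. The SD of all values on an array ran from 2.22 to 2.35 in the older mice and from 2.28 to 2.43 in the younger, and these ranges overlap; with that SD as covariate the count of called genes was also 0.

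Among the 8 mice of 11.29 weeks, the only age held by both agents, the direction turned. Here 24 of 38 genes were higher in BLZ945 and the median was 0.14, with 0 called (0.718% of all genes called, 0.0888% higher and 0.629% lower; 2 higher and 1 lower at an unadjusted p under 0.05). Without BLZ945 6, 30 of 38 were lower and the median was -0.24, again with 0 called (4 lower and 1 higher at an unadjusted p under 0.05) and a smallest adjusted p of 0.0578. The slope on log2 initial volume within BLZ945 was called for 0 genes (0% of all genes; 1 of the 38 lower and 0 higher at an unadjusted p under 0.05).

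Of 78 further genes of the interferon pathway, 65 were measured, and 4 rose and 3 fell in BLZ945 (10.8%, against 7.94% of all genes, 2.6% higher and 5.34% lower). With quantile normalization repeated, 9 rose and 3 fell (18.5%, against 9.21% of all genes), and with the array SD as covariate 8 rose and 3 fell (16.9%, against 13.3%). Isg15, a ubiquitin-like protein joined to other proteins, was not analysed here. Ikbke, a kinase that activates Irf3 and Irf7, was 6.94, 7.35, 6.74, 6.10, 6.30, 6.73, 7.71 and 5.95 in Vehicle mice 1 to 8 and 7.35, 7.53, 7.69, 7.77, 8.03, 9.18, 8.25 and 8.02 in BLZ945 mice 1 to 8. All BLZ945 mice lay above 6 Vehicle mice, and the difference was 1.25 (SE 0.26, adjusted p = 0.00619). The receptor chain Ifngr2 rose by 0.75 (SE 0.18, adjusted p = 0.0165), from 8.42 ± 0.39 to 9.17 ± 0.39. The transcription factors Irf8 (0.49, SE 0.12, adjusted p = 0.0144) and Irf3 (0.43, SE 0.12, adjusted p = 0.0323) rose as well. Irf3, which is activated rather than induced in the response, lost its call in 7 of 16 fits that left out 1 mouse (adjusted p up to 0.072), when Vehicle 1, 4, 6, 8 or BLZ945 2, 5, 7 was the mouse left out.

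The 3 that fell were on the list as genes induced by interferon, and the differences of such genes went both ways. Lgals3bp, listed in the same way, differed by 0.70 (SE 0.22, adjusted p = 0.059) and Tor3a by 0.54 (SE 0.20, adjusted p = 0.115), neither called. Lgals9, a galectin, fell by 1.27 (SE 0.31, adjusted p = 0.0158), from 8.99 ± 0.56 to 7.72 ± 0.82. Mndal, a nuclear protein of the Ifi200 family, fell by 1.50 (SE 0.41, adjusted p = 0.0287) and lost its call when Vehicle 7, Vehicle 8 or BLZ945 4, 5, 7 or 8 was left out (up to an adjusted p of 0.0603). The Mndal probe set, like those of Irf3 and Gbp2, is of a kind that can also bind related sequences. Slfn4 fell by 1.74 (SE 0.52, adjusted p = 0.045), but its call held in only 4 of 16 fits that left out 1 mouse, those without Vehicle 3, 4 or 5 or BLZ945 1. Its Vehicle values ran from 4.52 to 8.93 and its BLZ945 values from 4.27 to 5.96. The calls of Ikbke, Ifngr2, Irf8 and Lgals9 held in all 16 of these fits.

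The other steps of the pathway did not pass. Of the receptors, Ifnar2 had 9.94 ± 0.24 in Vehicle and 10.30 ± 0.18 in BLZ945 (difference 0.36, SE 0.12, adjusted p = 0.0653). Of the kinases and STATs, Stat3 differed by -0.29 (adjusted p = 0.391) and Tyk2 by 0.20 (adjusted p = 0.397). In the Isg15 conjugation system, the activating enzyme Uba7 differed by -0.02 (adjusted p = 0.966) and the conjugating enzyme Ube2l6 by -0.01 (adjusted p = 0.983).

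Outside the set, the 10 genes that followed its mean most closely over 16 mice, agent means removed, were Gbp2b, Gbp6, Cfb, Cxcl10, Ifi209, Iigp1, Psme1, Lrrc8c, Parp12 and Gm20559. Their r ran from 0.970 (Gbp2b) to 0.940 (Gm20559), and over the 14 mice from 0.92 to 0.81. Gbp2b, a guanylate-binding protein, was 10.70 in Vehicle 2 and 11.72 in BLZ945 6, against medians of 7.49 and 7.73. Cfb, complement factor B, was 9.47 and 9.33 in these mice against medians of 6.65 and 5.92. Cxcl10, a chemokine that draws T and NK cells, was 9.82 and 9.60 against medians of 8.17 and 7.32. In each of these 3 the same 2 mice were the highest of their groups.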

How the data were processed

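Each of 16 mice gave 1 Affymetrix 3' expression array from 75 ng of total RNA of sorted cells, per the labels' protocols. The deposited values are log2 intensities per probe set. GCOS 1.4 and RMA are named, without their roles, per the submitters' processing notes; which RMA implementation ran is not given in the sources used here. By its method RMA compresses differences of dim probe sets. Scanner intensities were not used here, hence detection above background was not assessed, and precision is limited by the number of arrays.

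Of 22690 probe sets, 20393 carried exactly 1 symbol in the platform annotation, 691 several and 1606 none; 20364 were found in a RefSeq table by gene identifier. The brightest probe set stood for each of 12394 genes, with no filter. Groups came from the sample labels. Differences were tested with limma 3.58.1 in R 4.3.3 (lmFit, eBayes) over all genes, and called at a Benjamini-Hochberg adjusted p under 0.05; every adjusted p is from limma. The calculations were tested on simulated data. Alternatives covered probe set choice, scaling, array spread, dim genes, eBayes options, array weights, sex, a replicate block and leaving out mice.

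The members and lists were chosen with earlier results of these data known. All members could be named; the 3 of smallest p and the brightest of each role were to be given by mouse, as were called pathway genes, and the most similar genes by correlation. Rsad2, Gbp2, Irf7 and the females' Ifit1 were given by mouse, and the Ifit3 promoter printed, after their values were seen, as were the comparisons of Vehicle 2 with Vehicle 6 and 7. Mice sharing a replicate number were not paired by the labels.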

Additional observations from a re-analysis of the deposited data

Results flagged for a closer look

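Within the 2 agents, 22 of 76 groups of 8 mice (28.9%) had a highest mouse separated from the rest by Dixon's test, where all genes gave 1410 of 24788 groups (5.69%). Chance flags about 1 in 20 such groups. In Vehicle 2 these were Zbp1 at 10.08, Irf7 at 9.87, Stat2 at 8.51 and Oas3 at 7.37, where the next Vehicle mouse lay at 8.52, 8.04, 6.98 and 5.74. In BLZ945 6 they were the sensor and transcription factor genes Zbp1 at 9.41 and Irf7 at 9.40, and the IFIT genes Ifit1 at 9.0, Ifit2 at 10.82 and Ifit3 at 9.23. The OAS genes followed, with Oas1a at 11.01, Oas2 at 9.34, Oasl1 at 8.65 and Oasl2 at 9.11, as did Mx1 at 8.85, Isg20 at 7.85 and Adar at 8.11. So did the GTPases Ifi47 at 10.91 and Igtp at 11.33, the enzymes Usp18 at 9.83 and Parp14 at 9.89, and Rtp4 at 11.03 and Ifi35 at 8.77. The genes correlate across mice, so these groups are not independent of each other. No lowest mouse was separated in this way.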

How the results depend on the processing

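The count of genes called between agents was 0, and it was 1 with genes of mean under 5 left out (Ifi27l2a, adjusted p = 0.0499), 1 with array weights (Ifi27l2a, 0.0356), 9 without Vehicle 2 and BLZ945 6 (added after seeing the data) and 0 to 7 leaving out each mouse. Every such call was lower in BLZ945. With the replicate number as a block the count was 3 (Ifit1 0.042, Ifit3 0.0238, Rsad2 0.0444). The labels do not pair same-numbered mice. The deviations of such mice correlated at -0.48 to 0.39, which does not settle whether they shared any handling. The pathway count of 7 was 12 with quantile normalization repeated (9 higher, 3 lower), 11 with the array SD as covariate (8 higher, 3 lower) and 4 to 12 leaving out each mouse: 4 without Vehicle 8, BLZ945 5 or BLZ945 7, and 12 without BLZ945 6. The call of Irf3 was lost with the mean of all probe sets (adjusted p = 0.0788), that of Mndal with the array SD (0.0613) and that of Slfn4 with robust eBayes and array weights (up to 0.165). In females, leaving out each mouse, an alternative chosen after seeing the data as was that in males, gave 0 to 8 calls. The median correlation in BLZ945 ran from 0.43 (without BLZ945 6) to 0.87 leaving out each mouse, and that over 16 mice was 0.60 without both high mice. The counts for age, the 11.29-week mice, sex, interaction and volume were 0 in every setting run. Quantile normalization and median centring moved the median of all genes by -0.03 and 0.01.

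Small differences of uncalled genes changed sign. With the array SD as covariate 19 of 38 were negative, and Ifih1 was 0.27, Mx1 0.07, Irgm1 0.34, Gbp2 0.16, Usp18 0.33, Trim30a 0.04, Sp100 0.06, Slfn2 0.18 and Slfn8 0.13. Array weights gave Ifih1 0.03, Mx1 0.10, Irgm1 0.20, Usp18 0.22 and Slfn2 0.13; sex as covariate gave Oas3 0.03, Irgm1 0.04, Usp18 0.01 and Slfn2 0.04; the mean of probe sets gave Trim25 -0.08, and quantile normalization Slfn2 0.00. Leaving out each mouse, Stat2 ran from -0.40 to 0.07, Oas3 -0.25 to 0.25, Mx1 -0.30 to 0.06, Adar -0.05 to 0.20, Samhd1 -0.13 to 0.41, Irgm1 -0.44 to 0.13, Igtp -0.23 to 0.34, Gbp2 -0.80 to 0.11, Usp18 -0.32 to 0.06, Trim25 -0.06 to 0.20, Parp9 -0.21 to 0.13, Parp14 -0.21 to 0.14, Slfn2 -0.24 to 0.08 and Slfn8 -0.24 to 0.03. The cause was not tested.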
